A study of Mus musculus with 16 samples.

Results

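The 10 genes described here encode the mouse MHC class I chains H2-K1, H2-D1 and B2m, the MHC class II chains H2-Aa, H2-Ab1 and H2-Eb1 with their chaperone Cd74, and the peptide loading proteins Tap1, Tap2 and Tapbp. They were chosen by name, as MHC class I, class II and peptide loading genes, and are 10 of 55404 genes in the table. Whole brain RNA was sequenced for 8 mice homozygous for the L1152fs knock-in of Tecpr2 (Tecpr2 ki/ki) and 8 wt/wt mice, with 1 library per mouse. All mice were males of 5 months on a C57BL/6 J background and received no treatment. The knock-in allele is present in every cell of the animal, and whole brain pools all regions and cell types. The deposited values are linear, normalised across libraries and rounded to whole numbers, and are called normalised values below. Tecpr2, measured to check the labels, was 274 to 320 in the Tecpr2 ki/ki and 928 to 1002 in the wt/wt libraries (limma, log2 fold change of -1.68 with SE 0.0363, adjusted p = 2.16e-47).

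MHC class I molecules carry peptides made by the proteasome to the cell surface for CD8 T cells. Each consists of a heavy chain, such as those of H2-K1 and H2-D1, and the light chain B2m, and peptides reach it in the endoplasmic reticulum through the transporter of Tap1 and Tap2, to which tapasin (Tapbp) tethers the empty molecule. MHC class II molecules present peptides from endosomes and lysosomes to CD4 T cells, and their alpha and beta chains are held by the invariant chain Cd74 until lysosomal proteases such as cathepsin S (Ctss) degrade it. In the brain, class II expression is largely restricted to macrophages at the borders, to dendritic cells and to activated microglia, whereas class I is also found in endothelial cells and, at low levels, in neurons.

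Promoters of MHC genes share short elements, among them a Y box bound by NF-Y, and in class I genes also a site for NF-kB and an interferon-stimulated response element (ISRE). RefSeq windows of 300 bases around the start site (GRCm38.p6) were searched for 7 of the 10 genes. Cd74, H2-Ab1 and Tap2 were left out of this search, so the counts below do not cover them. The 5 windows below are those of the class I genes and of 2 class II genes, with capitals marking matches on either strand to ATTGG (Y box), GGGNNTTCCC (NF-kB) or GAAANNGAAA (ISRE). The windows are at chr17:34000298-34000597 (minus strand) for H2-K1, chr17:35262844-35263143 (plus strand) for H2-D1, chr2:122147437-122147736 (plus strand) for B2m, chr17:34287774-34288073 (minus strand) for H2-Aa and chr17:34305617-34305916 (plus strand) for H2-Eb1.
H2-K1: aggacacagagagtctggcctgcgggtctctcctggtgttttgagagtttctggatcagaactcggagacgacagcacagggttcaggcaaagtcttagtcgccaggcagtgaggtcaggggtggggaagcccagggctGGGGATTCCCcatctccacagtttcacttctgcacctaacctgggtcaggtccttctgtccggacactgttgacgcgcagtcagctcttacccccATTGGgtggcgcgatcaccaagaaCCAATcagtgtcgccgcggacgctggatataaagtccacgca
H2-D1: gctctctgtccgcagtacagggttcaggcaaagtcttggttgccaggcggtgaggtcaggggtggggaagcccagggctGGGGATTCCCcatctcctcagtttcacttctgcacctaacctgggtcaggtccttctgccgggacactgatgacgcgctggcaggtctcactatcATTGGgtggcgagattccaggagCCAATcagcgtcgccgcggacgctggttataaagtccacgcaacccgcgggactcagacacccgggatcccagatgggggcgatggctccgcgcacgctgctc
B2m: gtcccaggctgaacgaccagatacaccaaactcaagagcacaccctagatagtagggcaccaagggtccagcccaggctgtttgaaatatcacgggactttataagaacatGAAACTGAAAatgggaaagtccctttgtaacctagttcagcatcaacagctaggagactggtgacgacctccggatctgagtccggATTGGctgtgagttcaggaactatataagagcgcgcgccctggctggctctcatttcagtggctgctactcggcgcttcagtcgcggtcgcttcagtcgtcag
H2-Aa: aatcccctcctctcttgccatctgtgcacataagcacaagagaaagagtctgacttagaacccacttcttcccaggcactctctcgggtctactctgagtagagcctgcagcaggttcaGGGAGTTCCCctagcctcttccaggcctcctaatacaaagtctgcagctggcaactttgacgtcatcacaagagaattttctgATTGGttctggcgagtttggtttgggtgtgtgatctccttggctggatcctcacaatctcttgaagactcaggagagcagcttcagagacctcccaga
H2-Eb1: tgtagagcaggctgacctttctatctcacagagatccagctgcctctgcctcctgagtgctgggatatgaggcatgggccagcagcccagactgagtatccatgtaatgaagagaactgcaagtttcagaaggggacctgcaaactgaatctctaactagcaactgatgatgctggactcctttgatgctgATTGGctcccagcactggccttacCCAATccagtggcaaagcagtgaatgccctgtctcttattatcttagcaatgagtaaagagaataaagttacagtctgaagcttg
All 7 windows held the Y box letters, which 37.4% of 32851 promoter windows also held. The NF-kB letters stood in 3 of the 7, in H2-K1, H2-D1 and H2-Aa, against 1.75% of all windows. ISRE letters in exactly the form GAAANNGAAA were found in B2m alone, against 3.44% of all windows. Looser forms of the ISRE were not searched, so the other windows may hold them. None of the matches overlapped another. H2-K1 and H2-D1 each carried a pair of Y box matches on opposite strands and 1 NF-kB match. The NF-kB letters were widened after the windows had been read, and a match describes letters only.

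Antigen presentation genes were expressed over a wide range in whole brain, and the order of the most abundant of them per kb of exon held in every mouse. Levels of different genes were compared per kb of annotated exon. B2m had the largest level (555 ± 40.2 per kb, SD, n = 16), followed by H2-D1 (155 ± 11.7), Tapbp (74.1 ± 5.1), H2-K1 (47.3 ± 4.13) and Cd74 (34.8 ± 7.35). Tap2 (15.1 ± 3.04), H2-Eb1 (10.1 ± 2.64), H2-Ab1 (7.16 ± 1.32), H2-Aa (6.11 ± 1.84) and Tap1 (5.91 ± 1.04) were lower. B2m exceeded H2-D1, H2-D1 exceeded Tapbp, Tapbp exceeded H2-K1, H2-K1 exceeded Cd74 and Cd74 exceeded Tap2 in 16 of 16 mice. Their ranges over the mice did not overlap, except those of H2-K1 and Cd74. Further down, Tap2 exceeded H2-Eb1 in 15 mice, H2-Eb1 exceeded H2-Ab1 in 13 and H2-Ab1 exceeded H2-Aa in 10, whereas H2-Aa exceeded Tap1 in 7, so that the last 4 genes were not separated beyond their spread. This order depends on the exon length, which pools all annotated transcripts of a gene and is the same divisor in every mouse. Undivided, Cd74 (mean 58.4) and Tap2 (57.1) were nearly equal. Tap1 (32.4) then exceeded H2-Aa (23.2), H2-Eb1 (19.7) and H2-Ab1 (18.4). In bulk tissue, fewer cells of a type and less RNA per cell cannot be told apart.

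**Figure D1:**
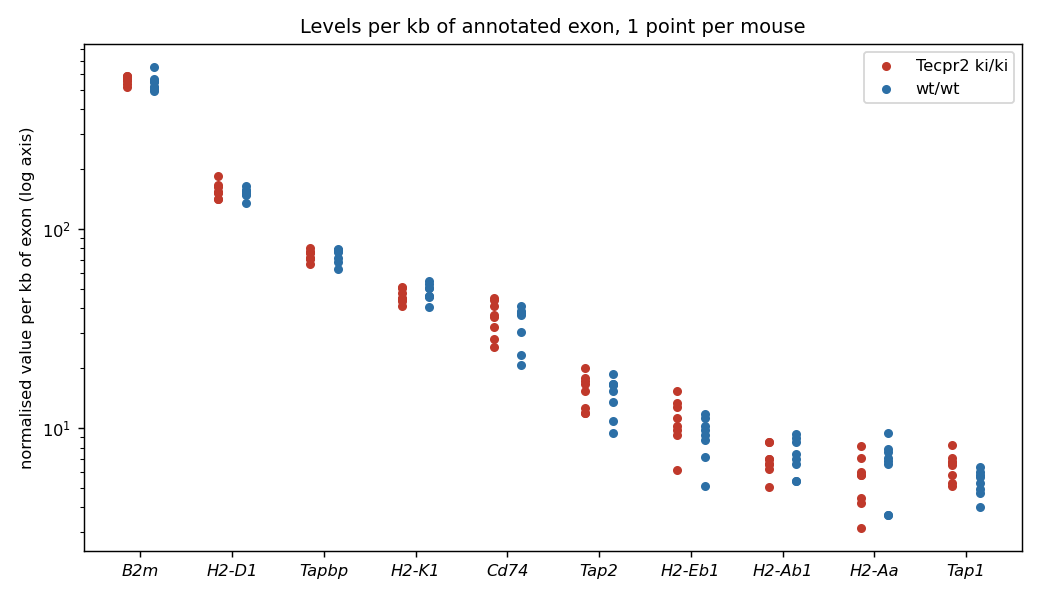
Normalised value per kb of annotated exon (log axis) of each gene, with 1 point per mouse and the genotypes side by side. B2m lies above all other genes, and the 3 class II chains and Tap1 lie within one range at the bottom.

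None of the 10 genes passed the test between the genotypes. In limma's test on log2(value + 1), 0 of the 10 had an adjusted p under 0.1, where 0.133% of the 23244 tested genes did (22 higher and 9 lower in Tecpr2 ki/ki). At an unadjusted p under 0.05 there were also 0 of 10 in limma (6.08% of all tested genes), and 1 of 10, Tap1, in the exact permutation test (6.13%). The values of the 2 genotypes overlapped in every one of the 10 genes, as they did in all but 0.086% of tested genes. In 6 genes the mean log2 level was higher in Tecpr2 ki/ki mice and in 4 it was lower, and the median log2 fold change was 0.05, against -0.00098 over all tested genes. All 10 passed the filter on low values.

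The class I genes had narrower intervals than the class II genes. H2-K1 lies on chromosome 17 at 33996017 to 34000347 (minus strand, GRCm38) in the K region of the MHC. Its normalised values were 121 at the lowest, 132 at the median and 150 at the highest in Tecpr2 ki/ki mice, and 120, 142 and 162 in wt/wt mice. The range of the Tecpr2 ki/ki mice lay within that of the wt/wt mice, with 2 wt/wt mice above all Tecpr2 ki/ki mice. The log2 fold change was -0.07 (95% interval -0.21 to 0.07, limma, adjusted p = 0.931, exact permutation p = 0.281).

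H2-D1 encodes the other classical heavy chain of this strain (chromosome 17, 35262730 to 35267499, plus strand). In Tecpr2 ki/ki mice it had values of 364, 398 and 476 (lowest, median and highest), and in wt/wt mice of 349, 397.5 and 426. The medians were nearly equal, and 2 Tecpr2 ki/ki mice exceeded the highest wt/wt mouse. On the log2 scale the difference was 0.04 (95% interval -0.05 to 0.13, limma, adjusted p = 0.940, exact permutation p = 0.481), and it was 0.00663 without Tecpr2 ki/ki mouse 7. H2-K1 and H2-D1 are close paralogs. Of the 31-base words in their annotated transcripts, 22.8% for H2-K1 and 26.7% for H2-D1 also occurred in transcripts of other genes, but of the 100-base words, the length of 1 read, 0.957% and 3.59%. Values of both genes are uncertain to the extent that reads were shared.

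B2m, the common light chain, lies outside the MHC (chromosome 2, 122147686 to 122153083, plus strand). Its values were 447, 494 and 508 in Tecpr2 ki/ki mice and 426, 458 and 561 in wt/wt mice. Values were above the wt/wt median in 7 of 8 Tecpr2 ki/ki mice, but the highest of all was wt/wt mouse 8. The log2 fold change was 0.06 (95% interval -0.03 to 0.14, limma, adjusted p = 0.902, exact permutation p = 0.293), and with 1 mouse left out it ranged from 0.0373 to 0.0939, the latter without wt/wt mouse 8 (limma, adjusted p = 0.816). With the level of microglia markers as a covariate, it turned to -0.0813 (limma, adjusted p = 0.913).

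The class II genes had low values and wide intervals. Cd74, the invariant chain (chromosome 18), had values of 43, 61.5 and 76 in Tecpr2 ki/ki mice and of 35, 63 and 69 in wt/wt mice. The 2 lowest of all 16 mice were wt/wt mice and the 2 highest Tecpr2 ki/ki mice, while the medians were close. Its log2 fold change was 0.12 (95% interval -0.14 to 0.39, limma, adjusted p = 0.934, exact permutation p = 0.463). With 1 mouse left out, this ranged from 0.0345 (without wt/wt mouse 8) to 0.19 (without Tecpr2 ki/ki mouse 2).

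H2-Aa, the alpha chain of the class II molecule I-A (chromosome 17, 34282744 to 34287823, minus strand), had values of 12, 22 and 31 in Tecpr2 ki/ki mice and of 14, 26.5 and 36 in wt/wt mice. Only 1 Tecpr2 ki/ki mouse lay below all wt/wt mice, and 1 wt/wt mouse above all Tecpr2 ki/ki mice. The log2 fold change was -0.22 (95% interval -0.58 to 0.15, limma, adjusted p = 0.912, exact permutation p = 0.342). It ranged from -0.324 to -0.115 with 1 mouse left out and turned to 0.0126 with microglia markers as a covariate. H2-Ab1, the beta chain of I-A (chromosome 17, 34257689 to 34269419, plus strand), had values of 13, 17.5 and 22 against 14, 18.5 and 24. These ranges nearly coincided. Its log2 fold change was -0.07 (95% interval -0.41 to 0.28, limma, adjusted p = 0.981, exact permutation p = 0.626), between -0.121 and -0.00677 with 1 mouse left out.

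H2-Eb1, the beta chain of I-E (chromosome 17, 34305867 to 34316674, plus strand), had values of 12, 21 and 30 in Tecpr2 ki/ki mice and of 10, 18.5 and 23 in wt/wt mice. Here 3 Tecpr2 ki/ki mice exceeded the highest wt/wt mouse, and the other 5 were within their range. The log2 fold change was 0.25 (95% interval -0.11 to 0.61, limma, adjusted p = 0.902, exact permutation p = 0.211). As fold changes, the 95% intervals were 0.667 to 1.11 for H2-Aa, 0.752 to 1.21 for H2-Ab1 and 0.925 to 1.53 for H2-Eb1. Differences within a gene's own interval were not excluded for that gene.

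Among the peptide loading genes, Tap1 had the smallest p of the 10 genes. It encodes one subunit of the peptide transporter (chromosome 17, 34187553 to 34197225, plus strand), and overlaps Psmb9 on the other strand. B2m, H2-Eb1, Tap2 and Tapbp also overlap genes of the other strand in the annotation. The libraries were stranded, but whether the counting used strand is not stated in the sources used here. Its values were 28, 36.5 and 45 in Tecpr2 ki/ki mice and 22, 30 and 35 in wt/wt mice. Of the Tecpr2 ki/ki mice, 5 were above all wt/wt mice, and none was below the wt/wt range. The log2 fold change was 0.26 (95% interval -0.01 to 0.53, SE 0.135), which did not pass limma's test (unadjusted p = 0.0599, adjusted p = 0.846), and the exact two-sided permutation test over 12870 splits gave p = 0.0309 unadjusted. This was 1 of 10 such tests, the gene was singled out after its value had been seen, and 6.13% of all tested genes had an exact p under 0.05.

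Tap2, the other transporter subunit (chromosome 17, 34203527 to 34216321, plus strand), had values of 45, 60.5 and 76 in Tecpr2 ki/ki mice and of 36, 60 and 71 in wt/wt mice. Both genotypes covered nearly the same range. On the log2 scale Tap2 differed by 0.08 (95% interval -0.17 to 0.33, limma, adjusted p = 0.967, exact permutation p = 0.615), and by -0.00414 without wt/wt mouse 8. Tapbp, encoding tapasin (chromosome 17, 33915899 to 33929292, plus strand), had values of 242, 268.5 and 293 in Tecpr2 ki/ki mice and of 229, 281 and 288 in wt/wt mice. It was the gene with the smallest difference of the 10, with a log2 fold change of -0.0020 (95% interval -0.11 to 0.10, limma, adjusted p = 0.998, exact permutation p = 0.968). Its annotation overlaps that of Zbtb22 on the same strand, and 2.4% of its 31-base words were shared with that gene.

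**Figure D2:**
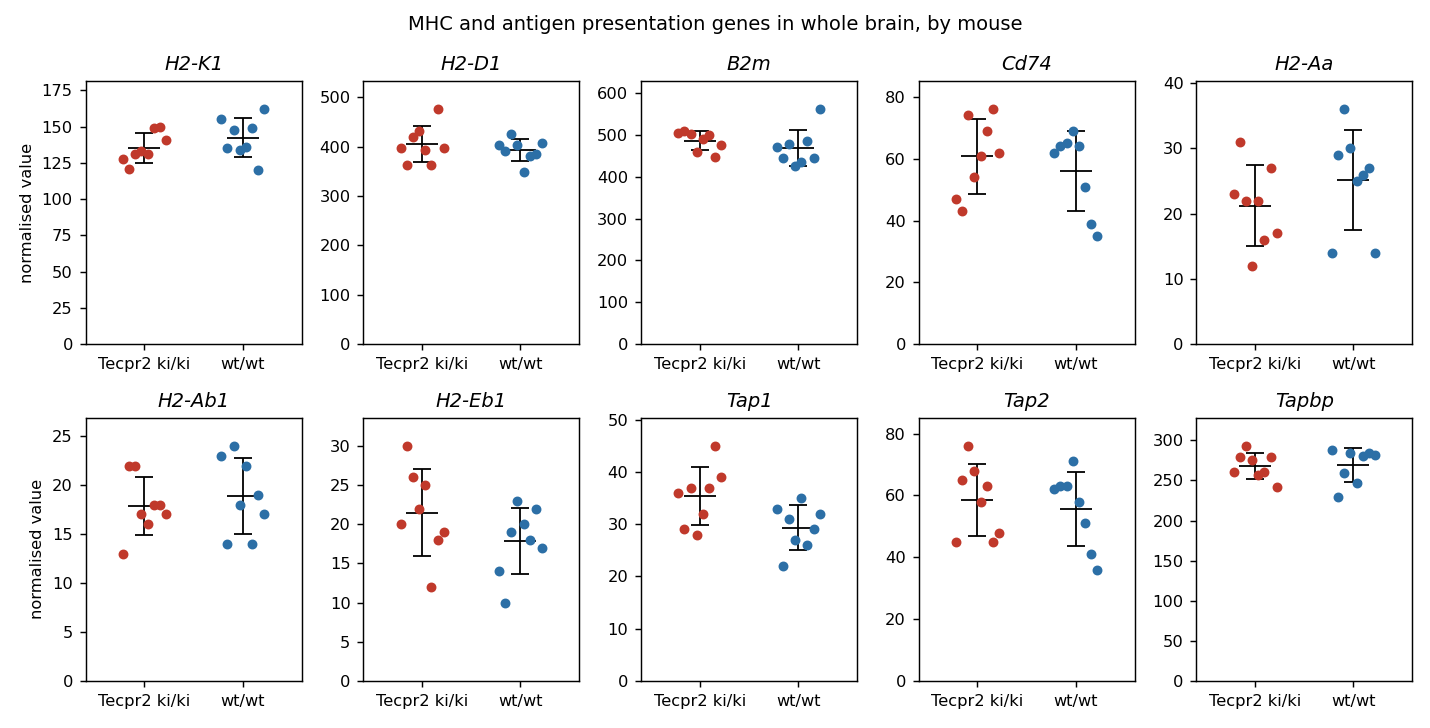
Normalised value (vertical axis, starting at 0) of the 10 genes in each of the 8 Tecpr2 ki/ki and 8 wt/wt mice, with the mean and SD of each genotype in black. The points of the genotypes overlap in every panel, and in Tap1 5 Tecpr2 ki/ki mice exceed the highest wt/wt mouse.

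**Figure D3:**
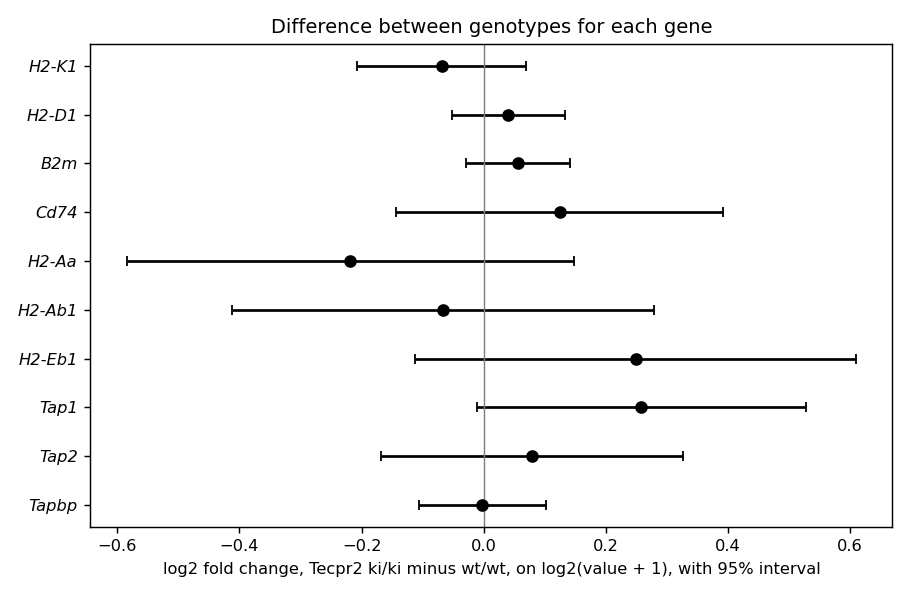
Log2 fold change (Tecpr2 ki/ki minus wt/wt) of each gene with its 95% interval from limma. All 10 intervals include 0, and they are narrowest for B2m and widest for H2-Aa.

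The spread within a genotype was compared with counting noise. From the depth of each library (9.23 to 14.3 megareads on genes in Tecpr2 ki/ki and 10.1 to 15.4 in wt/wt mice), the variance within genotypes was set against that expected from counting alone. The depths were estimated, except in Tecpr2 ki/ki mice 3 and 4 and wt/wt mice 1 and 7, where the total of the normalised values was used. The ratio was 0.653 for H2-Ab1, 0.756 for Tap1, 1.04 for H2-K1, 1.24 for H2-Eb1 and 1.36 for Tapbp. It was larger for H2-Aa (2.08), H2-D1 (2.35), Tap2 (2.43), B2m (2.5) and Cd74 (2.68). These ratios are a description with no test, and they rest on the estimated depths.

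Genes of one class varied together only weakly across mice. Deviations from the genotype mean, on the log2 scale over 16 mice, correlated with Pearson's r between -0.12 (H2-D1 and B2m) and 0.39 (H2-K1 and B2m) among the class I genes, and between -0.29 (Cd74 and H2-Eb1) and 0.35 (H2-Ab1 and H2-Eb1) among the class II genes. The largest r of all 45 pairs was 0.60, between Cd74 and Tap2, and the most negative was -0.56, between B2m and Cd74. These values are a description, since all genes of a mouse share its library and depth. By the estimated depths, counting noise made up most of the spread of H2-Ab1, H2-K1 and H2-Eb1, which lowers r whatever these genes share. Of 17188 other genes, those most like the mean of the class II genes were Relt (r = 0.796), Dlst (0.786), Gm13127 (0.784), Gm8399 (0.784) and Pex19 (0.779). For the class I genes they were Plk4 (0.837), Dtd2 (0.822), Rps15a (0.82), Cptp (0.818) and Hcn2 (0.815). These are the largest of 17188 correlations over only 16 mice. Unrelated genes can reach such values, shared regulation was not tested and none is claimed.

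The remaining genes of the pathway were given by lists. Of 21 other class I and class I-like genes, 16 were tested, 0 passed the adjusted threshold and the median log2 fold change was 0.05 (9 higher, 7 lower). The most expressed of them, H2-T22, had normalised values of 159 ± 10.1 in Tecpr2 ki/ki and 160 ± 13.6 in wt/wt mice (SD, n = 8 each). Among 11 other genes of class I processing, which include immunoproteasome subunits and the chaperones calreticulin and calnexin, 0 of 11 passed and the median was -0.01. Canx, encoding calnexin, had values of 4050 ± 91.7 against 4060 ± 144.

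Class II processing held 1 gene that rose. Of 11 listed genes, 8 were tested and 1 passed, Ctss, with values of 442 ± 15.7 in Tecpr2 ki/ki and 361 ± 26.2 in wt/wt mice (limma, log2 fold change 0.29, SE 0.0432, adjusted p = 1.58e-05). No Tecpr2 ki/ki mouse (408 to 457) was within the range of the wt/wt mice (320 to 394). The list's median was 0.02. Lgmn, a lysosomal protease and the most expressed gene of the list, had values of 826 ± 22.3 against 796 ± 34.7 and did not pass. Whether Ctss differed from Cd74 or the class II chains in its change was not tested, since Ctss was singled out for its own.

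Of 17 regulators of MHC transcription, 17 were tested, 0 passed and the median was 0.04. Ciita, the master activator of class II genes, had values of 78.9 ± 9.33 in Tecpr2 ki/ki and 70.8 ± 9.19 in wt/wt mice (limma, log2 fold change 0.16, 95% interval -0.03 to 0.34, adjusted p = 0.879). Nlrc5, the corresponding activator of class I genes, had values of 16.9 ± 6.06 and 16.5 ± 2.51 (log2 fold change -0.03, 95% interval -0.42 to 0.35, limma, adjusted p = 0.991), so that the means of the values and of their logarithms differed in sign. Jak1, a kinase of interferon receptors and the most expressed gene of the list, had values of 1760 ± 38.6 and 1790 ± 43.

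Costimulation and T cell recognition genes numbered 8, of which 6 were tested and 0 passed, with a median of 0.06. Lag3, a receptor that binds MHC class II, had values of 46.6 ± 10.5 in Tecpr2 ki/ki and 33 ± 3.7 in wt/wt mice (limma, log2 fold change 0.46, unadjusted p = 0.000562, adjusted p = 0.225). It was under an unadjusted p of 0.01, as were 1.56% of all tested genes. Icosl, the ligand of ICOS, had values of 57.8 ± 13.7 and 56 ± 11.1. Of 22 interferon-stimulated genes, 21 were tested, 0 passed and the median was -0.03 (6 higher, 15 lower). Stat2, the most expressed of them, had values of 365 ± 24.8 and 348 ± 23.3.

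The class III region lies between the class II genes and H2-D1, with H2-K1 on the other side of the class II genes, and holds complement genes. Of its 21 listed genes, 17 were tested and 2 passed, both higher in Tecpr2 ki/ki mice, with a list median of 0.01. C4b, complement component 4, had values of 565 ± 31.3 against 350 ± 16.9 (limma, log2 fold change 0.69, SE 0.0407, adjusted p = 8.80e-22), and its near copy C4a of 78 ± 15.6 against 52.1 ± 5.06 (0.55, SE 0.106, adjusted p = 0.00316). Reads of these 2 genes may have been split between them. Bag6, the most expressed gene of the region, had values of 2070 ± 46.3 and 2080 ± 78.9.

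**Figure D4:**
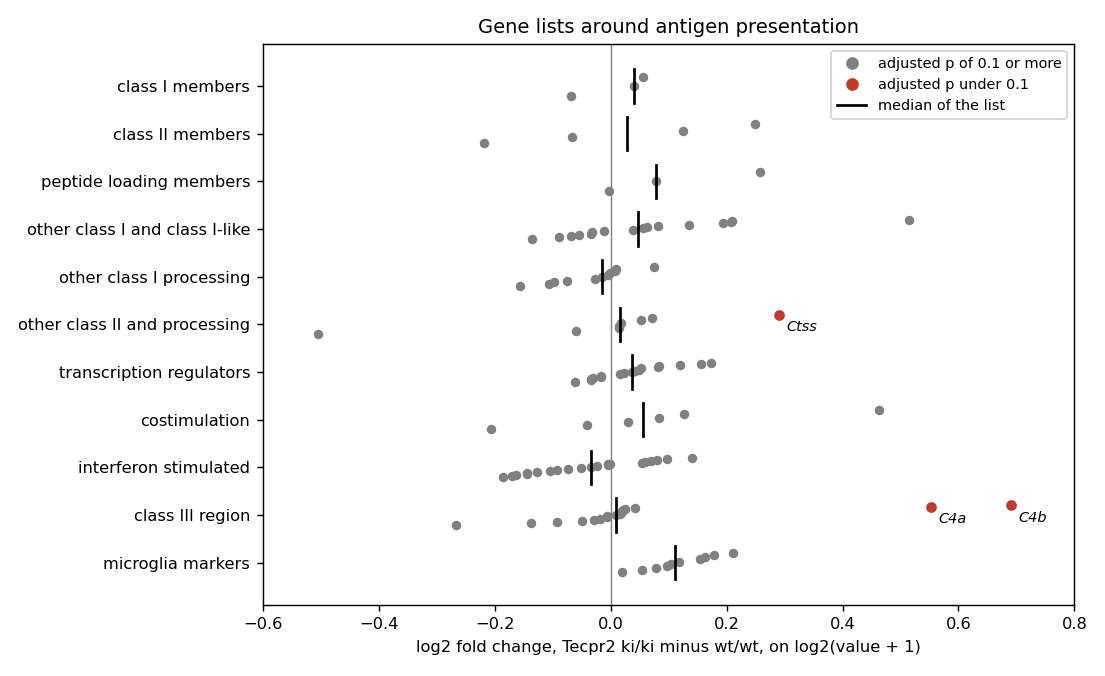
Log2 fold change (Tecpr2 ki/ki minus wt/wt) of every tested gene in the lists, with 1 point per gene, red where the adjusted p was under 0.1 and a black line at the list's median. Ctss, C4a and C4b are the red points, and none of the 10 genes is red.

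Markers of cells that express these genes were read beside them. All 10 microglia markers were higher on average in Tecpr2 ki/ki mice, with a median of 0.11, but 0 passed the adjusted threshold and 4 had an unadjusted p under 0.05 (limma), against 6.08% of all tested genes. Their summed values were between 2520 and 2703 in Tecpr2 ki/ki and between 2325 and 2569 in wt/wt mice. With the mean level of these markers as a covariate, 0 of the 10 antigen presentation genes passed in limma's test, and the direction turned in B2m (log2 fold change -0.0813) and H2-Aa (0.0126). P2ry12, a purinergic receptor of microglia, had values of 259 ± 15.1 against 231 ± 13.9 (limma, adjusted p = 0.459), and Csf1r, the marker with the largest value, of 708 ± 37.3 against 698 ± 34.9.

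Of 8 dendritic cell markers, Xcr1, Clec9a, Cd209a and Ccr7 had medians of at most 5. Itgax, which activated microglia also express, had low values, 6 to 10 in Tecpr2 ki/ki and 1 to 7 in wt/wt mice. Their means were 8.75 ± 1.39 against 3.38 ± 1.92 (limma, adjusted p = 0.0681). Itgax passed the filter on low values only through the Tecpr2 ki/ki mice, where it is high, so no rise is concluded from this p. The B cell markers Cd79a, Cd79b and Ms4a1, 7 of 8 T and NK cell markers and 5 of 5 neutrophil markers also had medians of at most 5, and summed values of the genotypes overlapped in all of these lists. Of 7 markers of perivascular macrophages, 0 passed, and their sums were 146 to 173 in Tecpr2 ki/ki and 146 to 176 in wt/wt mice. Endothelial markers (8 genes, 0 passed, with Slco1c1 at an adjusted p of 0.399) summed to 2682 to 2844 and 2752 to 2853. Among markers of the main brain cells, which were expressed in every mouse, the astrocyte gene Slc1a2 rose (limma, adjusted p = 0.00229) and the neuronal gene Gad1 fell (limma, adjusted p = 0.0681).

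The most expressed gene of each other marker list did not pass, with values in Tecpr2 ki/ki against wt/wt mice (mean ± SD, n = 8 each) as follows. Zbtb46 of the dendritic cell list had 366 ± 30.4 against 372 ± 22.3, Ighm of the B cell list 134 ± 7.84 against 128 ± 10.3, Cd4 of the T and NK cell list 47.2 ± 10.3 against 48.6 ± 7.61 and Mrc1 of the perivascular macrophage list 69.4 ± 7.65 against 72.5 ± 7.5. The endothelial gene Flt1 had 1110 ± 66 against 1130 ± 30.1, the fibroblast gene Col1a2 266 ± 33.2 against 257 ± 18.6, the choroid plexus gene Ttr 4090 ± 207 against 4360 ± 256 and the erythroid gene Alas2 113 ± 10.4 against 113 ± 21.3. The oligodendrocyte gene Mbp had 25700 ± 1050 against 25700 ± 1160 and the neuronal gene Snap25 15300 ± 1080 against 15700 ± 1020. Ngp of the neutrophil list was not tested, with values of at most 30 in Tecpr2 ki/ki and 8 in wt/wt mice. The part of these cell types in the values of the 10 genes was not tested beyond the covariates of microglia and endothelial markers.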

How the data were processed

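Stranded total RNA libraries, 1 from the brain of each mouse (8 per genotype), were sequenced by the authors as paired reads of 100 bases, trimmed with Trim Galore 0.6.10 and cutadapt 3.4, aligned to GRCm39 with STAR 2.7.10b and counted per gene. The deposited score of each gene in each mouse is a linear normalised value rounded to a whole number, and the normalisation is not given in the sources used here. Because these are not raw counts, no count test was run. The authors tested their own counts with DESeq2 1.40.2.

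Genes with a sum over 16 and a value over 5 in at least 4 mice of a genotype (23244 of 55404) were tested with limma 3.58.1 in R 4.3.3 on log2(value + 1) with genotype as the only term (variance trend, robust, two-sided, Benjamini-Hochberg, called at an adjusted p under 0.1). Fold changes on this scale understate those of low genes. Single values were compared by exact two-sided permutation over 12870 splits, whose smallest p is 0.000155. Totals per mouse lay between 11964284 and 12252324. Depth was estimated from gaps that division and rounding left among low values. Where the gaps gave no clear estimate (Tecpr2 ki/ki mice 3 and 4, wt/wt mice 1 and 7), the total was taken as the depth. Only the depth estimate and limma's test were tried on simulated data. Changes were planted there only in genes of high value, so detection at the values of the class II genes was not tried.

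Symbols, positions and exon lengths came from annotation of GRCm38 (52017 of 55404 identifiers matched), which differs from the build of the alignment. The named genes were the 10 members, Tecpr2, Ciita and Nlrc5, the genes of each list at an unadjusted p under 0.01 and the one with the largest value, and the 5 genes most like each MHC class. Of these, 1 gene is not reported. The members and lists were chosen with earlier results of these data known. Python 3.11.15, numpy 2.4.6, pandas 2.3.3 and matplotlib 3.10.9 were used. Alternatives are given in the closing section.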

Additional observations from a re-analysis of the deposited data

Results flagged for a closer look

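B2m in wt/wt mouse 8 stood apart from its group. Its normalised value was 561, and the next highest wt/wt mouse had 486, a gap of 0.556 of the group's range, above Dixon's 95% critical value for 8 samples. Chance flags about 1 in 20 groups, and 20 groups (10 genes in 2 genotypes) were examined. The library held 10.1 megareads on genes, the lowest depth of the wt/wt mice. Without this mouse, the log2 fold change of B2m was 0.09 (limma, unadjusted p = 0.0251, adjusted p = 0.816).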

How the results depend on the processing

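None of the 10 genes passed the adjusted threshold under any alternative that was run. Of 268 comparisons of a gene under an alternative, 253 kept the direction and 15 reversed it. Tapbp reversed to 0.00187 with libraries rescaled to equal totals, 0.00517 with array weights and 0.0422 with endothelial markers as a covariate, and B2m (-0.0813) and H2-Aa (0.0126) reversed with microglia markers as a covariate. With 1 mouse left out, Tapbp ranged from -0.0346 to 0.0189 and Tap2 from -0.00414 (without wt/wt mouse 8) to 0.133, and the other 8 genes kept their direction. The cause was not tested.

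Over the whole table, 31 genes were called. The number was 20 with no filter on low values, 16 with neither variance trend nor robust fit and 9 with the microglia covariate, and 25 to 40 with 1 mouse left out. Mice with the same replicate number had deviations with correlations of -0.00531 to 0.0643, and 3 of 8 Tecpr2 ki/ki mice correlated best with their own number. Whether the numbers pair the mice was not tested and cannot be told from these values. A replicate block called 46 genes and 0 of the 10. Median log2 fold changes of all genes stayed within 0.01 of 0 under each scaling. With a mean value of at least 20 required, H2-Ab1 and H2-Eb1 were not tested. At these low values, the 95% intervals of the class II genes were wider than those of the class I genes.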
